A study of Mus musculus with 12 samples.

Results

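The genes examined were the metallothioneins Mt1 and Mt2, the zinc-sensing transcription factor Mtf1, the zinc exporters and organelle loaders Slc30a1, Slc30a5 and Slc30a7, and the zinc importers Slc39a1, Slc39a7, Slc39a10 and Slc39a14. They were listed by name, with earlier results of these data known, and are 10 of the 55604 genes in each count file. A gene entered the tests when enough libraries held enough reads, which 9 of the 10 did, against 16406 genes in all. Mt2 did not.

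The libraries were mRNA sequencing libraries of bone marrow-derived macrophages from C57BL/6 mice, which were differentiated from marrow in M-CSF (20 ng/ml) and taken on day 7. The 12 libraries form 3 groups of 4: macrophages alone with no treatment, macrophages that had engulfed control B16-F10 corpses, and macrophages that had engulfed STC1OE B16-F10 corpses. B16-F10 is a mouse melanoma line, and STC1OE marks corpses of cells made to overexpress STC1, stanniocalcin 1. Corpses were added at 5 per macrophage for 20 h, and those not bound were washed off before RNA was taken. Each condition was sequenced from 4 independent experiments, per the series' design text. No group holds STC1OE cells that were not fed to macrophages, and both the corpses and the macrophages are mouse cells, so their reads cannot be told apart by species.

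Zinc is kept at very low free concentrations in the cytosol by proteins that bind it and by transporters that move it across membranes. Metallothioneins are small cysteine-rich proteins that hold zinc and copper. The SLC30 (ZnT) family moves zinc out of the cytosol, across the plasma membrane or into organelles, and the SLC39 (ZIP) family moves zinc into the cytosol. MTF1 binds zinc and then activates genes that carry metal response elements, among them Mt1, Mt2 and Slc30a1. In macrophages these genes are known for their response to inflammation and to ingested microbes.

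The coding sequences of the metallothioneins are shown because the reads of both genes have to be kept apart by sequence. They are from GENCODE M21 on GRCm38, with the cysteine codons in capitals.
Mt1 coding sequence: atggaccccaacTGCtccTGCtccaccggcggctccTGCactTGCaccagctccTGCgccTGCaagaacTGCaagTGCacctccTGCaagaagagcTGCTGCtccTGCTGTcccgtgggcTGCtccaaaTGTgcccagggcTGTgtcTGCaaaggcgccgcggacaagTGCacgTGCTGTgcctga
Mt2 coding sequence: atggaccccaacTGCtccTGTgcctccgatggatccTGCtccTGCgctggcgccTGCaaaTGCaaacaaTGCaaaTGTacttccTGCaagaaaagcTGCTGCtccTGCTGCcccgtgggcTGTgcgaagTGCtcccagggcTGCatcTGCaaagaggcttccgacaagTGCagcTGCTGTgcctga
Each is 186 bases long and encodes 61 residues, of which 20 are cysteine (32.8%). At the same position 79.6% of these bases are identical. The longest run shared by the whole transcripts is 20 bases, against sequencing reads of 150 bases, so the pair can be told apart at the read length used.

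The 250 bases before the RefSeq start (GRCm38.p6) are shown for the known MTF1 targets among the members, with matches to the metal response element core in capitals. The letters searched were TGCACNC and TGCGCNC on both strands.
Mt1, chr8:94178839-94179088, + strand: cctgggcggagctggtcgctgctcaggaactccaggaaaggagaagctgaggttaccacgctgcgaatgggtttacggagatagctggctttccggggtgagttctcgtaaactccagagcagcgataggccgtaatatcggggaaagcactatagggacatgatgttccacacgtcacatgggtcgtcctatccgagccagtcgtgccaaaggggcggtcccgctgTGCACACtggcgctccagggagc
Mt2, chr8:94172368-94172617, + strand: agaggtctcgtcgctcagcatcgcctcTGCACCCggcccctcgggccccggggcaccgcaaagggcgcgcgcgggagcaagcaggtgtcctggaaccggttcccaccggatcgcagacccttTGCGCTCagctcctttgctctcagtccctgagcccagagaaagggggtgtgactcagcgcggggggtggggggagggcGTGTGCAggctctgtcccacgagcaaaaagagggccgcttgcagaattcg
Slc30a1, chr1:191906531-191906780, + strand: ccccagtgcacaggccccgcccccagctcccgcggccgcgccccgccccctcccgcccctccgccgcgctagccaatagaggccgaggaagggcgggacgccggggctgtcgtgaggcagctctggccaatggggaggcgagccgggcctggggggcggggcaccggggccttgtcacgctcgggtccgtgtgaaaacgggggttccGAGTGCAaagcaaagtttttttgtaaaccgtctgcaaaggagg
Mt2 had 3 matches, a number reached by 1.26% of the 32851 promoter windows of the same length. Mt1 and Slc30a1 had 1 match each, as did Slc30a5, and at least 1 match was found in 21.4% of all windows. Entries were found for 9 of the 10 members, all but Slc39a14. The windows of Mtf1, Slc30a7, Slc39a1, Slc39a7 and Slc39a10 held no match. Annotated Mt1 exons begin at 6418, 6547 and 6577 bases from the first base of Mt2, and the Mt1 window ends near the first of these. The bases just before the later starts were not searched. A match describes letters in this window and no more.

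Libraries held 28488441 to 39981074 counts assigned to genes, so that 3 counts correspond to 0.0750 to 0.105 CPM (read counts scaled to a common library size with TMM factors). Summed macrophage markers (9 genes, among them Csf1r, Adgre1 and Cd68) lay at 15597 to 16476 CPM in macrophages alone, 13240 to 14914 with control corpses and 13120 to 14246 with STC1OE corpses. Among the 14 melanocyte markers, the 12 that lay below 1 CPM in macrophages alone, a subset chosen after their values were seen, summed to 1.73 to 1.92, 11.3 to 14.9 and 5.13 to 6.13 CPM in the same order. All 14 summed to 164.5 to 171.7, 123.5 to 128.0 and 116.5 to 119.9 CPM, and Tyr and Oca2 were at 0 in macrophages alone. Markers of neutrophils (178.3 to 186.4, 91.9 to 97.2 and 84.7 to 91.3 CPM over 10 genes) and of B cells (14.4 to 15.8, 4.60 to 5.32 and 4.35 to 4.74 CPM over 5 genes) were lower in both corpse groups. Stc1 itself was near the counting floor, with 5 counts over the 4 libraries of macrophages alone, 5 with control corpses and 17 with STC1OE corpses. In bulk RNA, fewer cells of a type and less RNA per cell cannot be told apart, and the part of corpse RNA or of other cells in the members' values was not tested.

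Mt1 rose with control corpses and rose further with STC1OE corpses, and it differed more between the groups than any other member with well-counted reads. The gene (ENSMUSG00000031765.8, chr8:94179082-94180327, + strand, GRCm38) shares no exon base with another gene. In macrophages alone it was at 49.1, 51.8, 47.5 and 45.0 CPM in replicates 1 to 4. With control corpses it was at 73.5, 70.3, 62.2 and 64.3 CPM. With STC1OE corpses it was at 77.5, 77.5, 87.1 and 86.5 CPM. The 3 groups did not overlap: every corpse library lay above every library of macrophages alone, and the lowest STC1OE library lay above the highest control library.

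The means were 48.3 ± 2.83, 67.6 ± 5.22 and 82.2 ± 5.35 CPM (SD, n = 4). By edgeR's quasi-likelihood test with Benjamini-Hochberg adjustment over all genes tested, Mt1 was 1.40-fold higher with control corpses than in macrophages alone (log2 fold change 0.49 ± 0.06 SE, adjusted p = 3.16e-05). It was 1.70-fold higher with STC1OE corpses (0.77 ± 0.06, adjusted p = 2.95e-07). Compared with control corpses, STC1OE corpses gave a 1.22-fold higher level (0.28 ± 0.06, adjusted p = 0.0179), with a 95% interval on the log2 scale of 0.16 to 0.40. Its log2 fold change exceeded that of 94.4%, 98.2% and 96.4% of all genes tested in the 3 comparisons.

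The difference in Mt1 between the corpse groups was uneven over the replicate numbers. Replicates 1 and 2 were the higher pair with control corpses and the lower pair with STC1OE corpses. STC1OE replicates 3 and 4 also had the most reads not aligned of all libraries, 17.8% and 17.5%, and the lowest TMM factors, 0.963 and 0.951. STC1OE replicates 1 and 2 had 14.6% and 14.4% not aligned, and control replicates 1 to 4 had 11.3%, 11.5%, 10.8% and 11.4%. The part of these library differences in the Mt1 values was not tested. Using replicates 1 and 2 of each group alone, the log2 fold change was 0.11 (edgeR, adjusted p = 0.570), and using replicates 3 and 4 alone it was 0.46 (adjusted p = 4.76e-14). With the replicate number as a block the value was 0.28 and the call was lost (adjusted p = 0.0796). Leaving out any 1 library gave 0.24 to 0.33, with adjusted p from 0.00457 to 0.0449. The summed melanocyte markers given above differed between the groups as well, in an order that depends on which markers are summed, and their part in the Mt1 values was not tested.

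**Figure D1:**
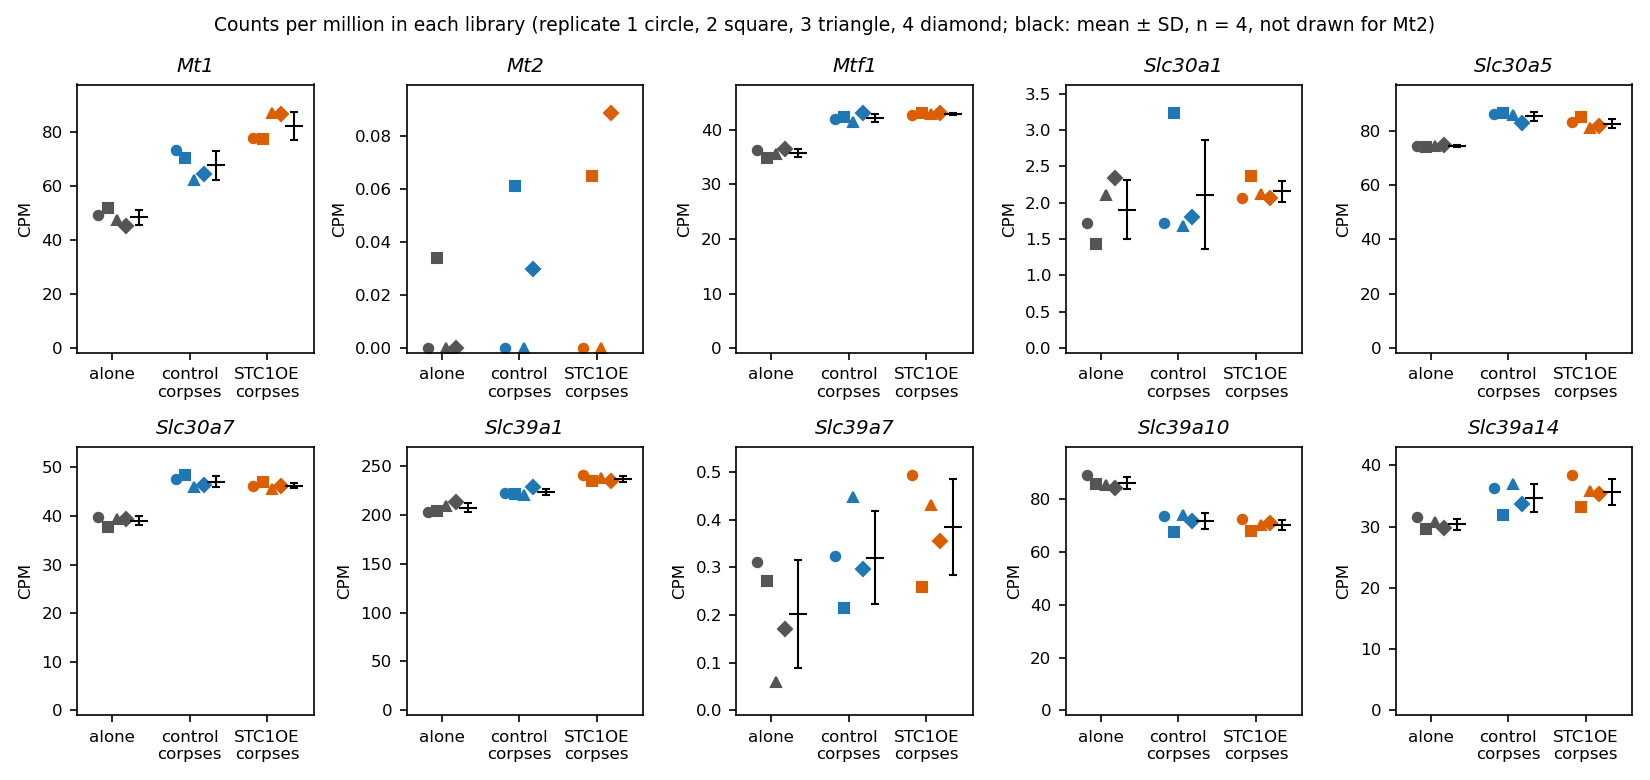
CPM of each member in each of the 12 libraries, with 1 panel per gene and its own linear axis; symbols mark the replicate number, and black bars give mean ± SD of 4 libraries (left out for Mt2). Mt1 separates all 3 groups, Slc39a10 is lower in both corpse groups, and Mt2 and Slc39a7 stay below 0.1 and 0.5 CPM.

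Mt2, the neighbour of Mt1, had 9 reads over all 12 libraries and was not tested. Its counts in replicates 1 to 4 were 0, 1, 0 and 0 in macrophages alone, 0, 2, 0 and 1 with control corpses, and 0, 2, 0 and 3 with STC1OE corpses. Every library thus lay at or under the counting floor of 3 reads, and the groups overlapped. Mt2 (ENSMUSG00000031762.7) lies at chr8:94172664-94173568 on the + strand, and 73.5% of its 588 exon bases lie under an exon of the antisense gene Gm45774 (chr8:94170748-94173412, − strand), which had 14 reads in all. The unshared rest is 1 stretch at the 3′ end of the gene. HTSeq sets aside a read pair that overlaps 2 genes as ambiguous unless strand decides between them, and whether strand was used in the counting is not stated in the labels or files. The ambiguous class held 5.53% to 6.62% of reads in each library.

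**Figure D2:**
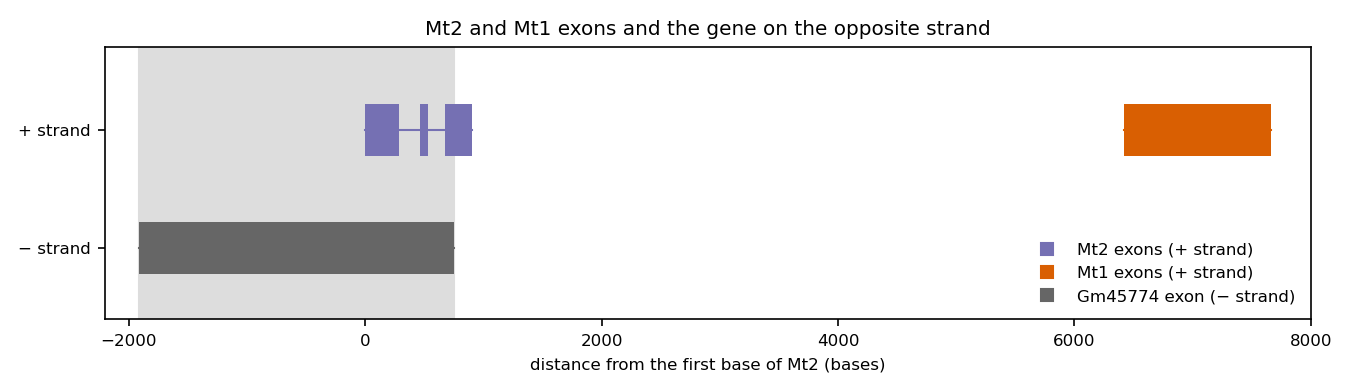
Exons of Mt2 and Mt1 on the + strand and of Gm45774 on the − strand, by distance in bases from the first base of Mt2; the grey band marks the span of Gm45774, which covers 73.5% of the exon bases of Mt2 and none of Mt1. Exons of all annotated transcripts are merged, so a transcript of Mt1 that keeps its introns fills the Mt1 block.

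Levels were also low in most other protein-coding genes with at least 70% of exon bases shared with another gene, and why was not tested. Of the 91 genes with at least 70% of their exon bases shared with a gene on the opposite strand only, 0 were above 10 CPM per kilobase of exon and 4.40% were above 1. Of the 15461 genes that share no exon base, 16.2% were above 10 and 39.0% above 1. Of 239 genes with at least 70% shared on the same strand only, 0.418% were above 10 and 2.51% above 1. The 70% bound was chosen after the values of Mt2 were seen. How many Mt2 reads were set aside was not tested, so a low mRNA level and reads lost to the shared exons cannot be told apart from these counts.

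**Figure D3:**
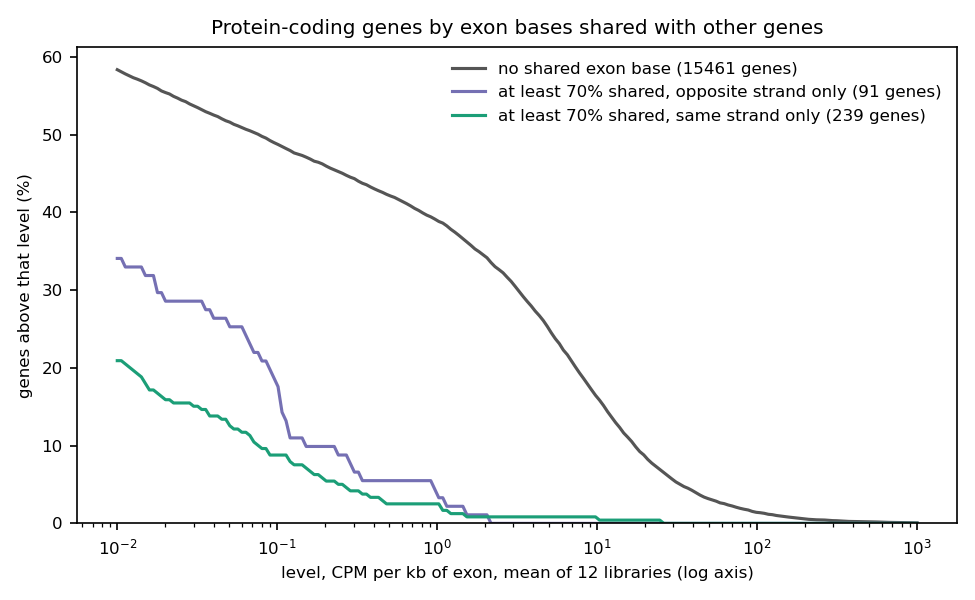
Share of protein-coding genes (%, vertical axis) above each level (CPM per kb of exon, mean of 12 libraries, log axis), for genes that share no exon base and for genes with at least 70% of exon bases shared with another gene on the opposite or the same strand only. At 10 CPM per kb the curves stand at 16.2%, 0 and 0.418%.

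Mtf1, the sensor that switches on the metallothionein genes, rose by a small amount in both corpse groups. It was at 36.3, 34.8, 35.7 and 36.4 CPM in macrophages alone, 42.0, 42.4, 41.4 and 43.0 CPM with control corpses, and 42.7, 43.2, 43.0 and 43.0 CPM with STC1OE corpses. All corpse libraries lay above all libraries of macrophages alone, and the corpse groups overlapped. The rise was 1.18-fold with control corpses (edgeR, log2 fold change 0.24 ± 0.03 SE, adjusted p = 8.51e-07) and of much the same size with STC1OE corpses (0.26 ± 0.03, adjusted p = 1.36e-07). The corpse groups differed by 0.03 ± 0.03 (adjusted p = 0.732, 95% interval −0.04 to 0.09). Mtf1 (ENSMUSG00000028890.13, chr4:124802104-124849800, + strand) shares 8.09% of its exon bases with genes on the opposite strand.

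Slc30a1 (ZnT1), the exporter of the plasma membrane and a known MTF1 target, was low and did not pass the test in any comparison. It was at 1.73, 1.43, 2.11 and 2.35 CPM in macrophages alone, 1.72, 3.24, 1.68 and 1.81 with control corpses, and 2.07, 2.37, 2.12 and 2.07 with STC1OE corpses. The groups overlapped, and control replicate 2 stood alone at the top. The log2 fold change was 0.13 ± 0.19 SE with control corpses (edgeR, adjusted p = 0.637, 95% interval −0.24 to 0.50) and 0.17 ± 0.19 with STC1OE corpses (adjusted p = 0.511, −0.21 to 0.54). Without control replicate 2 the former was −0.13 (adjusted p = 0.563). A rise of the size seen for Mtf1 lies within these intervals. The gene (ENSMUSG00000037434.7, chr1:191906767-191913247, + strand) had 42 to 106 reads per library and shares 8.92% of its exon bases with an antisense gene, 1700034H15Rik.

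Slc30a5 (ZnT5) and Slc30a7 (ZnT7), which load zinc into the early secretory pathway, both rose in both corpse groups. Slc30a5 (ENSMUSG00000021629.10, chr13:100802648-100833427, − strand) was at 74.2, 73.9, 74.5 and 74.7 CPM in macrophages alone, 86.2, 86.6, 85.6 and 82.7 with control corpses, and 83.1, 84.9, 81.0 and 81.7 with STC1OE corpses. Slc30a7 (ENSMUSG00000054414.4, chr3:115938973-116007406, − strand) was at 39.7, 37.8, 39.3 and 39.5 CPM, then 47.6, 48.5, 45.9 and 46.3, then 46.3, 47.0, 45.7 and 46.1. For each gene all 8 corpse libraries lay above all 4 libraries of macrophages alone, while the corpse groups overlapped.

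With control corpses Slc30a5 rose 1.15-fold (edgeR, log2 fold change 0.20 ± 0.03 SE, adjusted p = 8.39e-07) and Slc30a7 rose by 0.27 ± 0.03 (adjusted p = 9.45e-08). With STC1OE corpses they rose 1.11-fold (0.15 ± 0.03, adjusted p = 4.58e-05) and 1.18-fold (0.24 ± 0.03, adjusted p = 5.51e-07). Between the corpse groups the differences were −0.05 ± 0.03 for Slc30a5 (adjusted p = 0.394, 95% interval −0.10 to 0.01) and −0.02 ± 0.03 for Slc30a7 (adjusted p = 0.749, −0.09 to 0.04). Slc30a7 has 9336 of 11116 exon bases clear of genes on the opposite strand, and Slc30a5 shares none.

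Slc39a1 (ZIP1), an importer of the plasma membrane, had the most reads of the members and rose in steps over the 3 groups. It was at 203.3, 203.7, 209.3 and 213.3 CPM in macrophages alone. With control corpses it was at 222.8, 221.5, 220.8 and 228.2 CPM. With STC1OE corpses it was at 240.8, 234.5, 237.2 and 234.8 CPM. No group overlapped another. The rise was 1.08-fold with control corpses (edgeR, log2 fold change 0.11 ± 0.02 SE, adjusted p = 0.000665) and 1.14-fold with STC1OE corpses (0.19 ± 0.02, adjusted p = 1.12e-07).

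The step between the corpse groups was 1.06-fold in Slc39a1 (edgeR, log2 fold change 0.08 ± 0.02 SE, adjusted p = 0.0338, 95% interval 0.04 to 0.13). Its size held when single libraries were left out (0.08 to 0.10), but its call did not: the adjusted p ran from 0.0340 to 0.122 and passed in 7 of 12 such fits. It was lost without control replicates 1, 2 or 3 (0.0734, 0.0727 and 0.122) and without STC1OE replicates 1 or 3 (0.0748 and 0.101). It was also lost with replicates 1 and 2 alone (0.510), replicates 3 and 4 alone (0.0668), upper quartile factors (0.0677), no filter (0.0923) and only the groups compared (0.0596), and kept with RLE factors (0.0206), DESeq2 (0.00555) and the replicate block (0.0208). Slc39a1 (ENSMUSG00000052310.9, chr3:90248172-90253612, + strand) shares no exon base with another gene.

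Slc39a10 (ZIP10), also an importer of the plasma membrane, was the 1 member that fell. It was at 89.2, 85.8, 85.3 and 84.3 CPM in macrophages alone, 73.7, 67.5, 73.9 and 71.8 with control corpses, and 72.5, 67.9, 70.1 and 71.0 with STC1OE corpses. The lowest library of macrophages alone lay above the highest of the 8 corpse libraries, and the corpse groups overlapped. It was lower with control corpses (edgeR, log2 fold change −0.26 ± 0.03 SE, adjusted p = 5.69e-08) and 1.22-fold lower with STC1OE corpses (−0.29 ± 0.03, adjusted p = 8.19e-09). The corpse groups differed by −0.03 ± 0.03 (adjusted p = 0.701, 95% interval −0.09 to 0.04). The gene (ENSMUSG00000025986.6, chr1:46807544-46892852, − strand) shares no exon base with another gene.

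Slc39a14 (ZIP14), which imports zinc, iron and manganese, rose in both corpse groups. It was at 31.6, 29.6, 30.7 and 29.8 CPM in macrophages alone, 36.3, 31.8, 36.9 and 33.7 with control corpses, and 38.4, 33.3, 35.8 and 35.3 with STC1OE corpses. Replicate 2 was the lowest library in each group, and the lowest corpse library still lay above all libraries of macrophages alone. The rise was 1.14-fold with control corpses (edgeR, log2 fold change 0.19 ± 0.05 SE, adjusted p = 0.00123) and 1.18-fold with STC1OE corpses (0.23 ± 0.05, adjusted p = 0.000144). The corpse groups overlapped and differed by 0.04 ± 0.05 (adjusted p = 0.691, 95% interval −0.05 to 0.13). Slc39a14 (ENSMUSG00000022094.15, chr14:70303469-70351425, − strand) shares no exon base with another gene.

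Slc39a7 (ZIP7), which releases zinc from the endoplasmic reticulum, was barely counted. Its reads in replicates 1 to 4 were 9, 8, 2 and 6 in macrophages alone, 13, 7, 16 and 10 with control corpses, and 16, 8, 13 and 12 with STC1OE corpses. The groups overlapped. It passed the filter on low counts through the corpse groups: 1 library of macrophages alone, 2 with control corpses and 3 with STC1OE corpses reached the bound of 0.302 CPM. The log2 fold change was 0.71 ± 0.40 SE with control corpses (edgeR, adjusted p = 0.164) and 0.96 ± 0.39 with STC1OE corpses (adjusted p = 0.0467). The latter call was lost with DESeq2 (adjusted p = 0.0833), with the replicate block (0.0564) and in 7 of 12 fits that left out 1 library. Without replicate 3 of macrophages alone the value was 0.64 (adjusted p = 0.191). Between the corpse groups the difference was 0.25 ± 0.35 (adjusted p = 0.756, 95% interval −0.42 to 0.93).

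Of the 2584 exon bases of Slc39a7 (ENSMUSG00000024327.15, chr17:34028269-34031682, − strand), 80.7% lie under Gm20427 (chr17:34026034-34031580), a processed transcript on the same strand that had 1 read in all. Counting by strand would not separate this pair. As for Mt2, low mRNA and reads set aside cannot be told apart here, and the values of Slc39a7 are given in what follows only where it is named or where all 9 members tested are counted.

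Of the 9 members tested, 6 rose and 1 fell with control corpses, while 40.1% of all genes tested were called (19.7% higher and 20.5% lower). With STC1OE corpses 7 rose, Slc39a7 among them, and 1 fell, against 43.8% of all genes (21.4% higher and 22.4% lower). Slc39a7 passed the low-count filter through the corpse groups, and of the 8 members without it 6 rose and 1 fell with STC1OE corpses. With STC1OE against control corpses 2 rose, Mt1 and Slc39a1, against 5.44% of all genes (3.33% higher and 2.12% lower). None of the members fell there by edgeR, by DESeq2 or at an unadjusted p below 0.05. DESeq2 gave no adjusted p for 1 of the 9 members there. The first pair of comparisons share the libraries of macrophages alone, so the like values of a member in both are not independent.

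The ranges of CPM did not overlap for 7, 7 and 2 members in the 3 comparisons, against 37.2%, 40% and 10.7% of all genes tested. The median log2 fold change of the 9 members tested, Slc39a7 included, was 0.20, 0.23 and 0.04, and without Slc39a7 it was 0.20, 0.21 and 0.03, beside −0.00096, −0.03 and −0.01 for all genes tested. The changes were small. Tested against a 1.2-fold change, Mt1 was the 1 member called in each comparison with macrophages alone, where 10.3% and 12.9% of all genes were called. Between the corpse groups 0 members and 0.0244% of all genes were called against that bound.

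**Figure D4:**
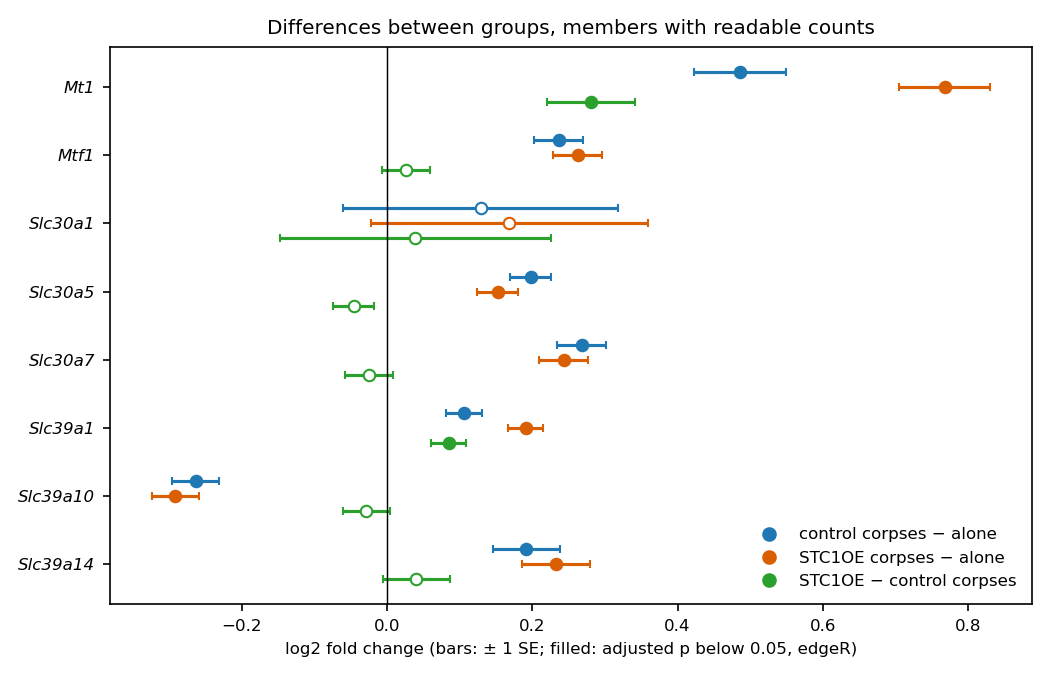
Log2 fold change (horizontal axis, bars ± 1 SE) of the 8 members other than Mt2 and Slc39a7 in the 3 comparisons; filled points have an edgeR adjusted p below 0.05. Mt1 reaches 0.49 and 0.77 against macrophages alone, Slc39a10 lies at −0.26 and −0.29, and between the corpse groups only Mt1 and Slc39a1 have filled points.

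Levels of different genes were compared per kilobase of merged exons. In macrophages alone Slc39a1 was highest at 87.7 ± 2.04 CPM per kb (SD, n = 4), followed by Mt1 at 38.8 ± 2.27, Slc39a10 at 14.1 ± 0.350 and Slc30a5 at 10.2 ± 0.0462. Mtf1 at 4.02 ± 0.0841, Slc30a7 at 3.52 ± 0.0778, Slc39a14 at 2.88 ± 0.0865 and Slc30a1 at 0.363 ± 0.0773 CPM per kb followed. Among these 8 genes no neighbours in the order overlapped in macrophages alone. In both corpse groups Slc39a10 and Slc30a5 overlapped, at 11.8 and 11.7 CPM per kb with control corpses and 11.5 and 11.3 with STC1OE corpses.

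Among the 12194 protein-coding genes tested, the mean level per kb over all libraries exceeded that of 97.3% of genes for Slc39a1, 94.7% for Mt1, 75.8% for Slc39a10, 72.9% for Slc30a5 and 13.5% for Slc30a1. Mtf1, Slc30a7 and Slc39a14 lay at 49.9%, 46.9% and 41.7%. The place of Mt1 depends on the length used. Its merged exons span 1246 bases because 1 annotated transcript keeps its introns, while its first-listed transcript has 549 bases. Per kb of first-listed transcripts, an alternative chosen after seeing the data, Mt1 was at 88.0 ± 5.15 CPM beside 87.7 ± 2.04 for Slc39a1 in macrophages alone, where their ranges overlapped. With control corpses it was at 123.1 ± 9.50 beside 94.5 ± 1.43, and with STC1OE corpses at 149.7 ± 9.74 beside 100.2 ± 1.22, where they did not. Slc39a14 moved most on this scale, to 14.5 ± 0.435 CPM per kb in macrophages alone.

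**Figure D5:**
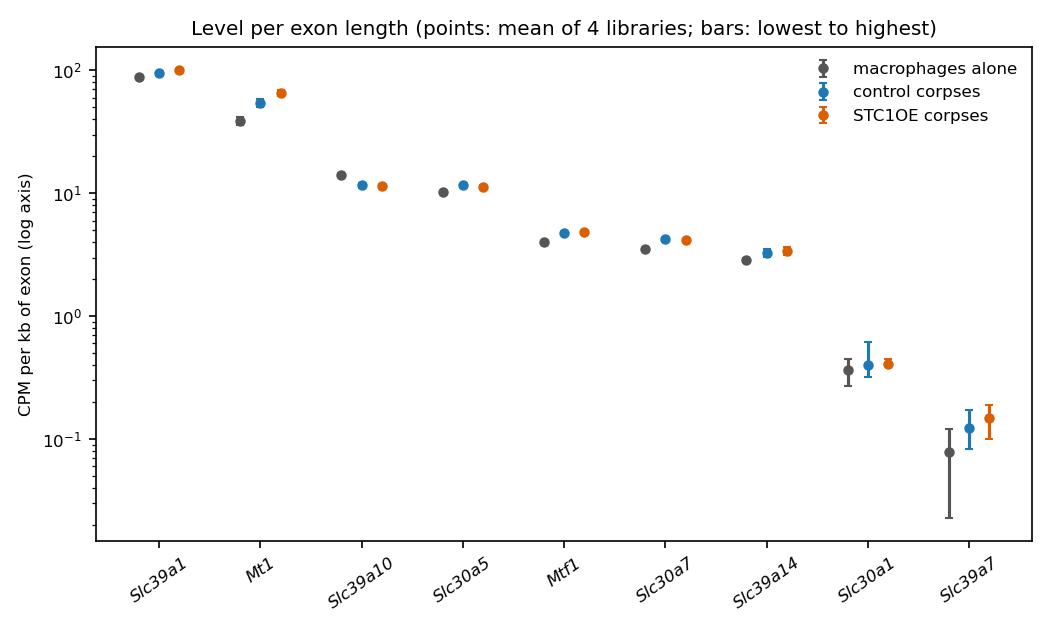
Level of each member but Mt2 per kb of merged exons (log axis), with points for the mean of 4 libraries and bars from the lowest to the highest library in each group. Slc39a1 and Mt1 lead, and Slc30a1 and Slc39a7 lie below 1 CPM per kb.

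The spread between libraries differed among the members. The coefficient of variation within a group was 5.85% to 7.72% for Mt1 and 1.22% to 2.32% for Slc39a1. For Slc30a5 it was 0.453% in macrophages alone and 2.09% and 2.08% in the corpse groups. Slc30a1 varied most of the 8 well-assigned members, at 21.3%, 35.7% and 6.64%. Its 21.3% came from 42 to 83 reads.

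The rest of the zinc transporter and metallothionein families was read from a list of 20 genes, of which 13 were tested. With control corpses 4 rose and 0 fell, while 40.1% of all genes tested were called, and with STC1OE corpses 5 rose and 1 fell, while 43.8% were. Taken in either direction, these shares lie near or under those of all genes. By direction, 19.7% and 21.4% of all genes were called higher and 20.5% and 22.4% lower. Against these the list held more rises and fewer falls, and it was not tested as a whole. For the list's 4 and 0, edgeR gave 5 higher and 0 lower at an unadjusted p below 0.05, and DESeq2 called 3 and 0. The median log2 fold changes were 0.09 and 0.07, beside −0.00096 and −0.03 for all genes. Slc39a8 (ZIP8), an importer of zinc and manganese, was at 7.91, 8.37, 8.57 and 9.92 CPM in macrophages alone. It rose to 11.2 to 12.5 CPM with control corpses (edgeR, log2 fold change 0.47 ± 0.07 SE, adjusted p = 1.52e-06) and to at most 12.2 CPM with STC1OE corpses (0.41 ± 0.07, adjusted p = 1.47e-05). No library of macrophages alone reached the corpse groups.

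Slc30a6 (ZnT6), the partner of ZnT5, rose by 0.22 ± 0.06 in both comparisons (edgeR, adjusted p = 0.00550 and 0.00664). Slc39a9 (ZIP9), found at the Golgi, rose by 0.12 ± 0.03 and 0.18 ± 0.03 (adjusted p = 0.00157 and 6.99e-06). With STC1OE against control corpses 0 of the 13 were called by edgeR, beside 5.44% of all genes. DESeq2 also called 0, but gave no adjusted p for 4 of them. At an unadjusted p below 0.05 by edgeR, 3 were higher and 1 lower. Mt4, Slc30a2, Slc30a3, Slc30a4, Slc30a8 and Slc30a10 had 0 reads in all libraries, and Mt3 had 20.

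Genes that handle copper, iron and manganese were read from a list of 18, of which 15 were tested. With control corpses 7 rose and 1 fell, against 19.7% higher and 20.5% lower of all genes tested, and with STC1OE corpses 6 rose and 0 fell, against 21.4% and 22.4%. From control to STC1OE corpses 3 rose and 0 fell, against 3.33% and 2.12%. The list's median log2 fold changes were 0.09, 0.07 and 0.06, beside −0.00096, −0.03 and −0.01 for all genes, and the list was not tested as a whole. For the counts of 0, an unadjusted edgeR p below 0.05 was reached by 1 lower gene with STC1OE corpses and 0 between the corpse groups, and DESeq2 called 0 lower in both. Slc11a1 (NRAMP1), which pumps iron and manganese out of the phagosome, was at 504.8 to 529.8 CPM in macrophages alone, 691.1 to 718.6 with control corpses and 793.3 to 823.1 with STC1OE corpses. As for Mt1, no group overlapped another. It rose by 0.46 ± 0.02 and 0.64 ± 0.02 on the log2 scale (edgeR, adjusted p = 2.60e-16 and 7.80e-20), and between the corpse groups by 0.18 ± 0.02 (adjusted p = 1.75e-05).

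Slc31a1 (CTR1), the copper importer, rose by 0.31 ± 0.03 and 0.34 ± 0.03 in the comparisons with macrophages alone (edgeR, adjusted p = 9.25e-10 and 1.45e-10). Sod1, the copper and zinc superoxide dismutase, rose by 0.17 ± 0.03 and 0.25 ± 0.03 (adjusted p = 1.05e-05 and 6.23e-09). Slc11a2 (DMT1), which carries iron out of endosomes, and Steap3, an endosomal ferrireductase, rose between the corpse groups by 0.13 ± 0.03 (adjusted p = 0.00686) and 0.12 ± 0.03 (adjusted p = 0.0205). The call on Steap3 was lost without control replicate 1 or 3 or STC1OE replicate 3 or 4 (adjusted p = 0.0507, 0.0835, 0.0592 and 0.0617).

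Zinc enzymes made through the secretory route moved both ways. Of 10 tested from a list of 12, 5 rose and 2 fell with control corpses and 6 rose and 2 fell with STC1OE corpses, beside 40.1% and 43.8% of all genes called. The metalloproteases Mmp12 (macrophage elastase) and Mmp9 (gelatinase B) fell, by 0.82 ± 0.04 and 0.67 ± 0.09 on the log2 scale with control corpses (edgeR, adjusted p = 4.11e-13 and 1.36e-07) and by 0.84 ± 0.04 and 0.66 ± 0.09 with STC1OE corpses (adjusted p = 2.50e-13 and 1.62e-07). Mmp9 is abundant in neutrophils, whose summed markers were lower in both corpse groups as given above, and their part in its fall was not tested. The membrane-bound Mmp14 rose by 0.58 ± 0.04 and 0.59 ± 0.04 (adjusted p = 1.57e-13 and 9.35e-14). Between the corpse groups 1 rose and 0 fell, beside 3.33% higher and 2.12% lower of all genes. The sheddase Adam17 was the gene that rose, by 0.13 ± 0.02 (edgeR, adjusted p = 0.000708). At an unadjusted p below 0.05 by edgeR, 1 gene was lower. DESeq2 called 0 lower, but gave no adjusted p for 3 of the 10.

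Mt1 and Mt2 are also known targets of the glucocorticoid receptor, and a list of 10 glucocorticoid-responsive genes, all tested, held genes that moved both ways. With control corpses 3 rose and 5 fell, with STC1OE corpses 2 rose and 4 fell, and between the corpse groups 1 rose and 1 fell, beside 40.1%, 43.8% and 5.44% of all genes called. Klf9 and Zbtb16, transcription factors, fell by 0.82 ± 0.07 and 0.75 ± 0.10 with control corpses (edgeR, adjusted p = 1.00e-11 and 5.10e-07) and by 0.77 ± 0.07 and 0.68 ± 0.10 with STC1OE corpses (adjusted p = 4.16e-11 and 2.40e-06). The phosphatase Dusp1 fell by 0.57 ± 0.08 with control corpses (adjusted p = 0.000337) and by 0.56 ± 0.08 with STC1OE corpses (adjusted p = 0.000348). The kinase Sgk1 rose by 0.55 ± 0.08 with control corpses (adjusted p = 0.000245) and by 0.74 ± 0.08 with STC1OE corpses (adjusted p = 2.31e-05).

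Fkbp5, a co-chaperone of the glucocorticoid receptor, was lower with STC1OE than with control corpses by a log2 fold change of −0.23 ± 0.06 (edgeR, adjusted p = 0.0174), with overlapping groups. Against macrophages alone, Fkbp5 was higher with control corpses (edgeR, 0.24 ± 0.06, adjusted p = 0.00106), with overlapping groups. With STC1OE corpses it was not called (0.02 ± 0.06, adjusted p = 0.862). The call between the corpse groups was lost without control replicate 1 or 3 or STC1OE replicate 3 or 4 (adjusted p = 0.0753, 0.0547, 0.0894 and 0.0915). Ddit4, a stress-induced inhibitor of mTORC1 signalling, was the gene of the list that rose there, by 0.63 ± 0.15 (adjusted p = 0.0115), with groups that did not overlap. The call was lost without control replicate 3 or STC1OE replicate 3 (adjusted p = 0.0508 and 0.0652). Its mean lay below 2 CPM, and it was named after its values were seen.

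The genes whose log2 CPM followed that of Mt1 most closely over the 12 libraries, among 10123 protein-coding genes, were Gstm1 (Pearson r = 0.984), Atp6v1g1 (0.984), Fth1 (0.983), Nfic (0.983) and Cstb (0.981). They encode a glutathione transferase, a subunit of the vacuolar proton pump, the ferritin heavy chain, a transcription factor and the protease inhibitor cystatin B. Fth1 was at 8836 ± 404.5 CPM in macrophages alone, 11470 ± 123.7 with control corpses and 13532 ± 1173 with STC1OE corpses, and Gstm1 at 141.0 ± 8.91, 223.3 ± 4.68 and 280.4 ± 17.6. For Slc30a1 the closest genes were Cr1l (0.854), Osbpl9 (0.801), Gstt2 (0.784), Ndufs1 (0.783) and 2610301B20Rik (0.783), none as close as those of Mt1. The 12 points share the 3 group means and the scaling of each library, so these values describe a ranking and carry no test.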

How the data were processed

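RNA was sequenced from 12 libraries in 3 groups of 4, with groups and replicate numbers taken from the sample titles. The authors deposited raw read counts per gene for each library. Alignment and counting tools named in the submitters' processing notes are HISAT2 and HTSeq, beside DESeq2, all with no version, and the builds named are mm10 and GRCm38. The annotation release and the use of strand are not given in the sources used here. Lines of the count files that name no gene were left out: no feature 10.6% to 14.7%, ambiguous 5.53% to 6.62%, low quality 5.17% to 5.85%, not aligned 10.8% to 17.8% and not unique 5.74% to 7.03%.

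Identifiers without version matched GENCODE M21 for 54809 genes and did not for 795. Coordinates, exon lengths, shared exon bases and coding sequences come from that annotation, and promoter windows from RefSeq. The tests used edgeR 4.0.16 under R 4.3.3, with filterByExpr (minimum count 10, minimum total 15), TMM factors, 1 robust quasi-likelihood fit of a mean for each group over the 12 libraries, two-sided contrasts, Benjamini-Hochberg adjustment over the 16406 genes tested and a threshold of 0.05. The common biological coefficient of variation was 4.53%. CPM are TMM-scaled. Standard errors are the log2 fold change divided by the root of the F statistic, and 95% intervals are 1.96 times that. The fits were also run on simulated counts with known changes. That simulation gave every gene the same dispersion, so it does not speak for members that varied more, such as Slc30a1. Alternatives were RLE and upper quartile factors, a replicate block, DESeq2 1.42.0, no filter, a fit of only the groups compared, a test against 1.2-fold, the melanocyte marker score as a covariate, replicates 1 and 2 or 3 and 4 alone, each library left out, and, chosen after seeing the data, another gene length. The depth per library sets the floor of 3 counts given with the results; floors cover counting error only.

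The members and gene lists were chosen with earlier results of these data known. All 10 members are named. Of each list, up to 3 called genes with the largest change and a mean of at least 2 CPM are named per comparison, and 5 genes most like Mt1 and Slc30a1. The rule called for the mean of Mt1 and Mt2, and Mt1 alone was used because Mt2 had 9 reads. Mt3, Mt4 and 5 Slc30a genes with few or 0 reads fall outside the rule and were named after their values were seen. The values of Dusp1 with STC1OE corpses, of Sgk1 with control corpses and of Fkbp5 against macrophages alone were likewise added outside the rule.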

Additional observations from a re-analysis of the deposited data

Results flagged for a closer look

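In 6 of 81 groups of 4 libraries examined, over the 10 members and 17 other named genes, 1 library stood apart from the other 3 by Dixon's criterion, which chance meets in about 1 group in 20. Slc30a1 was at 3.24 CPM in replicate 2 with control corpses, against 1.68 to 1.81 in the others, and without it the log2 fold change from macrophages alone was −0.13 in place of 0.13. Mt2 was at 0.0340 CPM in replicate 2 of macrophages alone, a single read, against 0 in the others. Fkbp5 was at 18.7 CPM in replicate 2 of macrophages alone, against 16.6 to 16.9. Sgk1 was at 80.1 CPM in replicate 1 with STC1OE corpses, against 96.8 to 97.6. Slc11a1 was at 691.1 CPM in replicate 1 with control corpses, against 716.5 to 718.6. Slc31a1 was at 54.1 CPM in replicate 4 of macrophages alone, against 52.5 to 52.6.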

How the results depend on the processing

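Over the member results and alternatives, 520 kept direction and side of the threshold, 56 lost the call, 1 gained it (Slc39a7, control corpses, replicates 3 and 4) and 15 changed sign, none of them a called value. Members called numbered 7, 8 and 2 for control corpses against alone, STC1OE corpses against alone and STC1OE against control corpses. Against a 1.2-fold change they numbered 1, 1 and 0, and with the melanocyte score as a covariate 0, 0 and 0. The ranges of that score did not overlap between the groups, so the covariate and the group cannot be told apart. Between the corpse groups 1 member was called with upper quartile factors, without the filter, with only the groups compared and with replicates 3 and 4 (Mt1 in each) and with the replicate block (Slc39a1), 0 with replicates 1 and 2, and 1 to 2 with 1 library left out. All genes called, 6582, 7186 and 893, became 1687, 2119 and 4 against 1.2-fold, 18, 369 and 0 with the covariate, 4090, 4650 and 33 with replicates 1 and 2, and, between the corpse groups, 1925 with replicates 3 and 4 and 474 to 1200 with 1 library left out.

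Signs turned for Slc30a1 with control corpses (−1.14 with the covariate, −0.35 in replicates 3 and 4, −0.13 without control replicate 2, up to 0.25 without 1 library), with STC1OE corpses (−0.59 and −0.089 in the first of these 2 settings) and between the corpse groups (−0.14 in replicates 1 and 2, and from −0.053 to 0.31 with 1 library left out, −0.051, −0.053, −0.023 and −0.0083 among them). They turned for Slc39a7 with control corpses (−0.86 with the covariate, −0.092 in replicates 1 and 2), and with the covariate for Slc30a5 (0.034), Slc30a7 (0.070) and Slc39a14 (−0.051) between the corpse groups and for Dusp1 (0.17) with control corpses. The cause was not tested. The call on Slc39a14 with control corpses was lost in replicates 1 and 2. Of 29 results for other named genes, 29 kept their call under RLE, upper quartile, no filter, DESeq2 and the replicate block, 17 against 1.2-fold, 19 in replicates 1 and 2, 28 in replicates 3 and 4 and 3 with the covariate.

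Same-numbered libraries correlated at −0.16 to 0.32, −0.42 to 0.11 and −0.17 to 0.41 in the 3 comparisons. Libraries of differing number correlated at −0.40 to 0.33, −0.37 to 0.48 and −0.54 to 0.21. The ranges overlap, and the numbers were not taken to pair the libraries, though these values do not settle it between the corpse groups. With the replicate block 7, 7 and 1 members were called. Of all genes, 3289, 3548 and 677 were then called higher and 3423, 3752 and 412 lower.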
